A study of Carassius gibelio with 4 samples.

Results

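The most abundant transcripts of gibel carp liver were chosen by level, as all gene IDs whose mean over 4 liver libraries was 1000 or more. There were 183 such IDs among 56011, or 0.327% of them. The libraries came from Carassius gibelio of strain F on a rapeseed meal diet, strain F on a fishmeal diet, strain A on a rapeseed meal diet and strain A on a fishmeal diet, and each combination is 1 library. All livers were taken 8 hours after the last feeding, and the labels give no age or sex and no number of fish per library. Because no combination was sequenced again, the differences have no error of their own. They are described by their size, with 2-fold as the limit, and no test was run. The libraries are called rapeseed-fed F, fishmeal-fed F, rapeseed-fed A and fishmeal-fed A below.

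The liver of a fish makes most of the proteins of the blood plasma, among them lipid carriers, iron carriers, clotting factors and complement, and it also handles the fat and amino acids that arrive from a meal. Transcripts of such secreted proteins usually take a large part of liver messenger RNA, so that a few genes weigh heavily in any liver library. Gibel carp is a polyploid fish that can reproduce by gynogenesis, and its genes often have several closely similar copies. Rapeseed meal is a plant protein source used in place of fishmeal. The IDs have the form of assembly components (c, a number, g and a number), and the files pair none of them with a gene name. A search of the gene table of the gibel carp assembly carGib gave 0 matches, so no function is given to any ID, and the liver label could not be checked against markers.

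The values were read as FPKM, which are levels per transcript length, multiplied by 1 factor per library. The factors were 1.07 for rapeseed-fed F, 0.705 for fishmeal-fed F, 1.34 for rapeseed-fed A and 0.993 for fishmeal-fed A. To a log2 diet fold (rapeseed over fishmeal) they add 0.60 in strain F and 0.43 in strain A. To a log2 strain fold (F over A) they add -0.32 with rapeseed and -0.49 with fishmeal. Counts and medians of folds are therefore given on the deposited scale and on the share scale. On the share scale each library is scaled to a sum of 1000000 and the factor cancels. Over the 35517 IDs of mean level 1 or more, the median log2 diet fold in strain A was -0.01 as deposited and -0.32 with the factors divided out. For the strain fold with rapeseed these medians were 0.03 and 0.26. Which scale lies closer to the amounts in the liver was not tested. Folds of single IDs are on the deposited scale unless the share is named.

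The strain F fishmeal library was shallow. It had 19015 IDs above 0, against 47839 in rapeseed-fed F, 44906 in rapeseed-fed A and 47201 in fishmeal-fed A. Low values gave an estimate that 1 read was worth 54.2 times as much in it as in the others. In the 117 low IDs on which the estimate rests, 1 read in that library stood at a median of 18.9 FPKM (5th to 95th percentile 9.70 to 41.8), and lengths of the abundant IDs are not known. At high level the SD of the distance from strain A was alike for both strain F libraries. Among the 152 abundant IDs that lay within 1.5-fold between the 2 strain A libraries on the share scale, the log2 distance from strain A had an SD over IDs of 0.38 for fishmeal-fed F and 0.38 for rapeseed-fed F. Among 3284 IDs of level 10 to 100 chosen in the same way, the SD was 1.58 for fishmeal-fed F and 0.85 for rapeseed-fed F. For the 152 abundant IDs the interquartile range was 0.322 for fishmeal-fed F and 0.285 for rapeseed-fed F. IDs that differ between the strains add to both spreads, so the scatter due to depth alone was not measured.

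The mean level of the 183 IDs ranged from 1012 to 95511 FPKM with a median of 2043. Of these IDs, 10 had a mean of 10000 or more, 24 a mean of 5000 or more and 89 a mean under 2000. The 2 IDs just inside the limit were c30507_g3 at a mean of 1020 FPKM and c24229_g1 at 1012 FPKM, and the 2 just outside were c32924_g1 at 994 and c23650_g2 at 992. The rule takes a mean, and 116 of the 183 were at 1000 or more in all 4 libraries, 64 in 2 or 3 libraries and 3 in 1 library. Further IDs reached 1000 in a library without a mean of 1000. They numbered 16 in rapeseed-fed F, 6 in fishmeal-fed F, 45 in rapeseed-fed A, the library with the largest factor, and 7 in fishmeal-fed A.

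The 183 IDs held 61.4% of the summed level in rapeseed-fed F, 56.6% in fishmeal-fed F, 67.1% in rapeseed-fed A and 62.5% in fishmeal-fed A. The share was thus higher on rapeseed than on fishmeal by 4.72 points in strain F and by 4.56 points in strain A. The difference of strain F minus strain A was -5.73 points with rapeseed and -5.89 points with fishmeal. The IDs were chosen on these same libraries, and rapeseed-fed A, with the largest factor, weighs most in the mean. Chosen by the mean of the other 3 libraries, 158 IDs were taken, and the diet difference in strain A was then 2.80 points (63.2% of rapeseed-fed A and 60.4% of fishmeal-fed A) and the strain difference with rapeseed -3.80 points (59.4% of rapeseed-fed F and 63.2% of rapeseed-fed A). The diet difference in strain F was 4.08 points and the strain difference with fishmeal -5.09 points in that choice. That choice still uses fishmeal-fed A and rapeseed-fed F, so the 2.80 and -3.80 points may lean the other way. Chosen without fishmeal-fed A (189 IDs), the diet difference in strain A was 5.42 points. Chosen without rapeseed-fed F (185 IDs), the strain difference with rapeseed was -6.36 points. The 774 IDs of mean level 100 to 1000 held 18.3%, 17.6%, 17.1% and 16.3% in the same order of libraries, a narrower span. The summed level of each library was covered to 50% by its own 81 highest IDs in rapeseed-fed F, 105 in fishmeal-fed F, 60 in rapeseed-fed A and 76 in fishmeal-fed A.

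**Figure D1:**
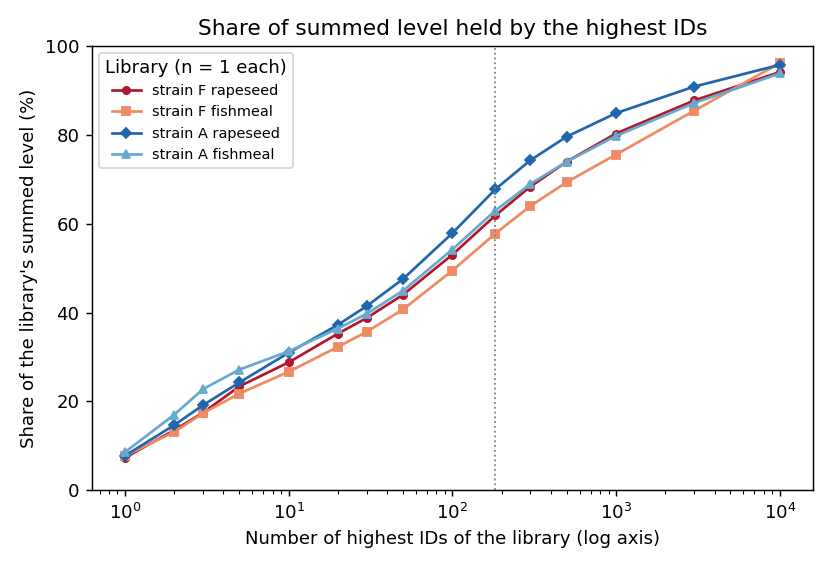
The share of each library's summed level (%, vertical axis) held by its highest IDs, against their number on a log axis, with 1 line per library. The dotted line stands at 183 IDs, where fishmeal-fed F is lowest at 57.8% and rapeseed-fed A highest at 67.7%, with the other 2 libraries between them.

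The 10 highest IDs by mean together held 28.1% of rapeseed-fed F, 25.8% of fishmeal-fed F, 30.4% of rapeseed-fed A and 31.1% of fishmeal-fed A. The highest ID, c33686_g1, held 7.30%, 7.74%, 6.89% and 8.58% in that order of libraries, and it ranked highest in all but rapeseed-fed A. The ID that ranked highest there was c29002_g1, which held 6.22% of rapeseed-fed F, 5.38% of fishmeal-fed F, 7.77% of rapeseed-fed A and 8.43% of fishmeal-fed A. Its share was lower in strain F than in strain A on both diets, and the differences of strain F minus strain A were -1.54 points with rapeseed and -3.05 points with fishmeal. The fishmeal difference was the largest loss of share of any of the 183 IDs in that pair. The next ID, c31665_g4, held 3.78%, 4.21%, 4.49% and 5.75% in the same order, and its share was lower with rapeseed than with fishmeal in both strains (-0.43 points in strain F and -1.26 in strain A), although its deposited level was 1.30 and 1.06 times higher.

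The other high IDs were mostly steady in rank. c26954_g1 held 3.93% of rapeseed-fed F, against 2.63%, 2.29% and 2.27% of fishmeal-fed F, rapeseed-fed A and fishmeal-fed A. Of the 183 IDs it had the largest gain of share with rapeseed in strain F (1.30 points). With rapeseed its share was 1.64 points higher in strain F than in strain A, also the largest such difference, and on fishmeal it was 0.36 points higher. c29875_g1 ranked at place 4 or 5 in every library, with shares of 2.14%, 1.79%, 2.69% and 2.13% in the usual order. The shares of c47103_g1 (0.866 to 1.16%), c33582_g1 (0.673 to 1.13%), c31200_g1 (0.726 to 1.13%) and c35442_g1 (0.759 to 1.37%) lay close together, and the share of c35442_g1 was higher in both strain F libraries than in both strain A libraries, which its deposited level was not. The same held for c31200_g1 and c26954_g1.

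The remaining ID of these 10, c21606_g1, owed its place to strain A. It stood at 1946 FPKM in rapeseed-fed F and 1161 in fishmeal-fed F, against 39896 in rapeseed-fed A and 6674 in fishmeal-fed A. It ranked at places 96, 112, 5 and 15 in that order. Its share of rapeseed-fed A was 2.41%, which was 1.87 points above fishmeal-fed A, the largest gain with rapeseed in strain A. The difference of rapeseed-fed F minus rapeseed-fed A was -2.26 points. On rapeseed it was 20.5 times lower in strain F than in strain A, and on fishmeal 5.75 times lower.

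Most ranks changed little. Of the 13 IDs that reached the top 10 of any library, 7 were in the top 10 of all 4, and 73 IDs were in the top 100 of all 4. Of the 183 IDs, 178 were in the top 500 of every library and 132 had ranks that spanned fewer than 50 places. The median span was 26 places, with 2.5 for the 10 highest IDs and 27 for the others. Since the IDs were chosen by their mean over these same libraries, high ranks in each are partly set by the choice. The span in places also depends on how far apart the levels lie. By share the 61 IDs of highest mean had no narrower median range (1.34-fold) than the middle 61 (1.26-fold) or the lowest 61 (1.29-fold). A span of 200 places or more was seen in 12 IDs. The widest was that of c21365_g1, at rank 979 in rapeseed-fed F, listed at 0 in fishmeal-fed F, and at rank 19 in rapeseed-fed A and 36 in fishmeal-fed A. Next was c36017_g1, at rank 57 in rapeseed-fed F and 36 in fishmeal-fed F, and at rank 4601 in rapeseed-fed A and 3948 in fishmeal-fed A.

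Across the 183 IDs log2 levels correlated between the diets with Pearson r of 0.88 in strain F and 0.88 in strain A (Spearman rho 0.91 and 0.80). Between the strains r was 0.68 on rapeseed and 0.64 on fishmeal (rho 0.72 and 0.78). Without c21365_g1 and c36017_g1, left out for their large strain folds on both diets, the strain values of r were 0.81 and 0.85. The diet values were then 0.89 in strain F and 0.85 in strain A. With all 183 IDs, r was 0.75 for rapeseed-fed F with fishmeal-fed A and 0.45 for fishmeal-fed F with rapeseed-fed A. These are correlations across IDs, which share the libraries and are not replicates.

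Most abundant IDs kept their share over all 4 libraries. On the share scale 110 of 183 had a highest library less than 1.5-fold above the lowest, 41 lay between 1.5-fold and 2-fold, and 32 spanned 2-fold or more, of which 11 spanned 8-fold or more. The median range was 1.30-fold. Ranges over the libraries were not taken for IDs of lower level, but single pairs can be set side by side. By share 95.6% of the 183 lay within 2-fold for diet in strain F, 91.8% for diet in strain A, 90.2% for strain with rapeseed and 91.3% for strain with fishmeal. Of the 774 IDs of mean level 100 to 1000, 86.3%, 85.8%, 85.0% and 80.5% did in that order. The 110 steady IDs held 30.2% of rapeseed-fed F, 29.2% of fishmeal-fed F, 29.5% of rapeseed-fed A and 30.7% of fishmeal-fed A. The 32 wide IDs held 5.71%, 5.18%, 11.4% and 5.12% in that order, and 21 of them were highest in rapeseed-fed A. These sets were made from the ranges themselves after seeing the data, and the IDs were chosen on a mean in which rapeseed-fed A weighs most, so the shares only describe where the spread lies.

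On the deposited scale the same IDs look different, with 162 of 183 lowest in fishmeal-fed F and 159 highest in rapeseed-fed A, the libraries of the smallest and the largest factor. By share 44 were highest in rapeseed-fed F, 29 in fishmeal-fed F, 67 in rapeseed-fed A and 43 in fishmeal-fed A, and 93 were still lowest in fishmeal-fed F. The steadiest ID on the share scale was c30568_g1, with 0.0981%, 0.0975%, 0.0970% and 0.0990% of rapeseed-fed F, fishmeal-fed F, rapeseed-fed A and fishmeal-fed A. c25021_g1 followed with 0.255%, 0.261%, 0.252% and 0.268%. On the deposited scale the narrowest ranges were those of c32527_g1, at 2358, 1916, 2258 and 2063 FPKM by library as before, and of c27616_g1, at 2293, 2214, 2727 and 2786 FPKM.

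The range was also set against level. The 61 IDs of highest mean (2689 FPKM or more) had a median range of 1.34-fold, the 61 in the middle 1.26-fold and the 61 of lowest mean (1622 FPKM or less) 1.29-fold. They included 10, 12 and 10 IDs that spanned 2-fold or more.

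**Figure D2:**
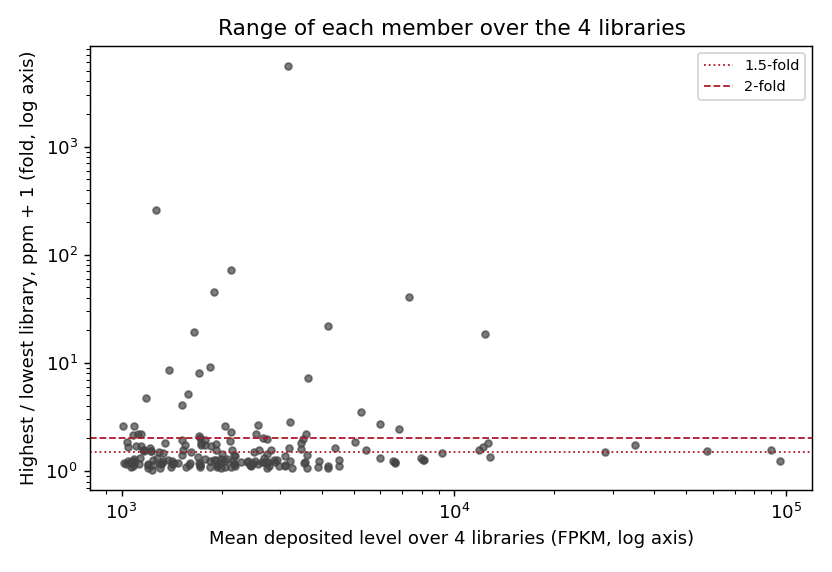
The fold between the highest and the lowest library of each of the 183 IDs (ppm + 1, values scaled to a sum of 1000000, log axis) against mean deposited level (FPKM, log axis), 1 point per ID. Most points lie under the dotted line at 1.5-fold and 32 at or above the dashed line at 2-fold. The topmost point is c21365_g1, whose range rests on a listed 0.

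The diet comparison asked how liver levels on rapeseed stood against those on fishmeal. In strain F 19 of the 183 IDs passed 2-fold upward with rapeseed and 1 passed it downward, which is 10.4% and 0.546%. Of all 35517 IDs with a mean of 1 or more, 40.8% were 2-fold higher and 13.8% lower in that pair. This pair includes the shallow fishmeal-fed F, where 36996 of 56011 IDs were at 0. Its shares and medians over all IDs, on either scale, are thus not a like background for the abundant IDs. The same holds below for every share or median over all IDs that uses fishmeal-fed F. In strain A 26 were higher (14.2%) and 0 lower, where 7.98% and 7.75% of all IDs were. In the next class, the 774 IDs of mean level 100 to 1000, 26.4% were higher and 3.10% lower in strain F. In strain A 14.6% of them were higher, near the 14.2% of the abundant IDs, and 2.45% lower, where 0 abundant IDs were. Chosen without rapeseed-fed A, 14 of 158 IDs passed 2-fold upward with rapeseed in strain F, and 16 did so in strain A. The median log2 fold of the 183 was 0.66 in strain F and 0.49 in strain A. It was 0.68 and 0.33 in the class of 100 to 1000, and 0.64 and -0.01 over all IDs. The 0.60 and 0.43 that the factors add enter the folds of every one of these sets. By share the medians of the 183 were 0.13 and 0.05, against 0.15 and -0.10 in the class of 100 to 1000 and 0.25 and -0.31 over all IDs. There 5 IDs were higher and 3 lower in strain F (34.0% and 19.2% of all IDs), and 12 higher and 3 lower in strain A (4.35% and 11.1% of all IDs). These are 2.73% and 1.64% of the 183 in strain F, and 6.56% and 1.64% in strain A. By share the class of 100 to 1000 had 8.79% higher and 4.91% lower in strain F, and 9.04% and 5.17% in strain A.

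In strain A the largest fold belonged to c32213_g1, at 5498 FPKM on rapeseed and 444 on fishmeal, 12.4 times higher on rapeseed. In strain F it stood at 1063 FPKM on rapeseed and 391 on fishmeal, 2.72 times higher. c32561_g1 came next in strain A, at 3340 FPKM on rapeseed and 288 on fishmeal (11.6 times higher). In strain F it stood at 932 FPKM on rapeseed and 981 on fishmeal. By share the strain F log2 diet folds were 0.91 for c32213_g1, short of 2-fold, and -0.60 for c32561_g1. In strain A they were 3.19 and 3.09. c31047_g1 had the second largest gain of share in strain A (1.16 points), at 22253 FPKM on rapeseed and 2222 on fishmeal.

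In strain F c31047_g2 had the largest fold between values above 0, at 1319 FPKM on rapeseed and 46.9 on fishmeal, or 28.1 times higher. Its fishmeal level is near the range estimated for 1 read in low IDs, so few reads may stand behind it. c21365_g1 was at 107 FPKM on rapeseed and listed at 0 on fishmeal. The ID at least 2-fold lower on rapeseed in strain F was c30471_g1, at 671 FPKM on rapeseed and 1517 on fishmeal (2.26 times lower). In strain A it stood at 1303 FPKM on rapeseed and 2575 on fishmeal (1.98 times lower), just short of the limit. Its log2 fold by share was -1.71 in strain F and -1.42 in strain A, and it was the sole abundant ID lower by 2-fold in both strains.

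No library enters both diet folds. On the deposited scale 9 of the 183 IDs passed 2-fold upward with rapeseed in both strains (4.92%), where 4.56% of all IDs did, and 0 passed it downward in both, where 0.921% did. Chosen without rapeseed-fed A, 4 of 158 were higher in both. By share 4 were higher in both (2.34% of all IDs) and 1 lower in both (1.64% of all IDs). Ranked by the smaller of its 2 diet folds, c26790_g1 came first, at 1078 FPKM on rapeseed and 69.9 on fishmeal in strain F, and at 5911 on rapeseed and 518 on fishmeal in strain A. These are 15.4 and 11.4 times. c26790_g1 passes the level limit only through its 5911 FPKM in rapeseed-fed A. The same value enters its strain A fold, so that fold is partly set by the choice of IDs. c31047_g1 was 15.4 times higher on rapeseed in strain F, at 4543 FPKM against 294 on fishmeal, and in strain A at 22253 FPKM against 2222 on fishmeal. Both IDs were lower in strain F than in strain A on each diet, and their fishmeal-fed F values were the lowest of the 4. The 69.9 FPKM of c26790_g1 is less than 2 times the upper end of the range given for 1 read.

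Across the 183 IDs the diet folds of the strains had a Pearson r of 0.52 and a Spearman rho of 0.26 (r of 0.58 without c21365_g1 and c36017_g1). On the deposited scale 170 had the same sign in both strains, and on the share scale 108 did. As deposited, where the factors lift the folds, 178 were above 0 in strain F and 173 in strain A. The count of 170 is thus mostly set by these 2 counts. By share 127 were above 0 in strain F and 110 in strain A. What count unrelated folds would give was not worked out. No ID was 2-fold higher in 1 strain and 2-fold lower in the other, on either scale.

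**Figure D3:**
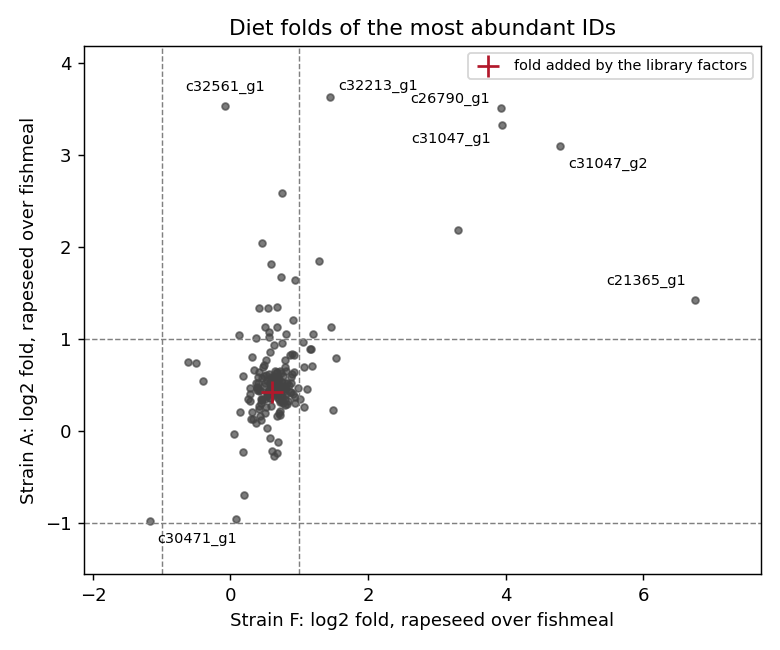
Log2 diet fold (rapeseed over fishmeal, deposited value + 1) in strain F (horizontal) and strain A (vertical), 1 point per abundant ID. Dashed lines mark 2-fold and the cross marks what the library factors add. Most of the 183 points crowd round the cross, and 9 lie above 2-fold in both strains. The place of c21365_g1 depends on the 1 added to a listed 0.

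The largest differences of the log2 diet fold, strain F minus strain A, were -3.61 for c32561_g1 and -2.18 for c32213_g1. Both IDs pass the level limit only through rapeseed-fed A, as c26790_g1 does. In the other direction c21365_g1 rests on its listed 0, and c31047_g2 differed by 1.69, with the low fishmeal-fed F value given above. With 1 library per combination no spread is left against which such a difference could be tested.

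The strain comparison asked how strain F stood against strain A on each diet. With rapeseed 2 IDs passed 2-fold upward in strain F (1.09%) and 19 downward (10.4%), where 11.1% and 12.5% of all IDs were. On fishmeal 3 were higher (1.64%) and 26 lower (14.2%), where 15.7% and 45.5% of all IDs were. In the class of 100 to 1000, 5.68% were higher and 10.1% lower with rapeseed, and 6.20% higher and 19.5% lower on fishmeal. Chosen without rapeseed-fed A, 3 of 158 IDs were higher and 8 lower with rapeseed, and 3 higher and 19 lower on fishmeal. The medians were -0.42 on rapeseed and -0.54 on fishmeal, of which the factors make -0.32 and -0.49. On the share scale the medians were -0.06 and -0.09, with 3 higher and 15 lower on rapeseed (12.8% and 8.24% of all IDs) and 5 higher and 11 lower on fishmeal (19.9% and 40.3% of all IDs). These are 1.64% and 8.20% of the 183 on rapeseed, and 2.73% and 6.01% on fishmeal. By share the class of 100 to 1000 had 9.43% higher and 5.56% lower on rapeseed, and 10.7% and 8.79% on fishmeal. The rapeseed pair joins 2 deep libraries, whereas the fishmeal pair includes the shallow fishmeal-fed F. The fishmeal shares and medians over all IDs are therefore again not a like background.

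No library enters both strain folds either. On both diets 2 IDs were 2-fold higher in strain F (1.09%, against 3.69% of all IDs) and 12 lower (6.56%, against 9.71%). Chosen without rapeseed-fed A, 3 of 158 were higher and 6 lower on both. By share it was 3 higher (4.32% of all IDs) and 11 lower (6.30% of all IDs). c36017_g1 was far higher in strain F, at 2675 FPKM on rapeseed and 2366 on fishmeal in strain F, against 15.2 and 18.0 FPKM in strain A. That is 176 times higher in strain F on rapeseed and 131 times on fishmeal. c27973_g1 stood at 9468 FPKM on rapeseed and 6103 on fishmeal in strain F, against 546 and 657 FPKM in strain A, or 17.3 and 9.28 times higher. It ranked at places 12 and 11 in strain F and at 332 and 227 in strain A.

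In the other direction c21365_g1 stood at 107 FPKM in rapeseed-fed F and 9168 FPKM in rapeseed-fed A, 85.8 times lower in strain F. It was listed at 0 in fishmeal-fed F and at 3409 FPKM in fishmeal-fed A. c31047_g2 was 16.0 times lower in fishmeal-fed F, where the value of strain F was the 46.9 FPKM given above, and 4.87 times lower on rapeseed. Of the 12 IDs lower on both diets, 10 were lower by at least 4-fold on 1 diet or both, and the other 2 by less. c32561_g1 went opposite ways, 3.58 times lower in rapeseed-fed F and 3.41 times higher on fishmeal, the sole abundant ID past 2-fold in both directions.

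Across the 183 IDs the strain folds on the 2 diets had a Pearson r of 0.83 and a Spearman rho of 0.50, and r was 0.69 without c21365_g1 and c36017_g1. On the deposited scale 161 had the same sign on both diets, and on the share scale 118 did. As deposited, where the factors lower the folds, 165 were below 0 on rapeseed and 165 on fishmeal. The count of 161 is thus largely set by these counts. By share 106 were below 0 on rapeseed and 121 on fishmeal.

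**Figure D4:**
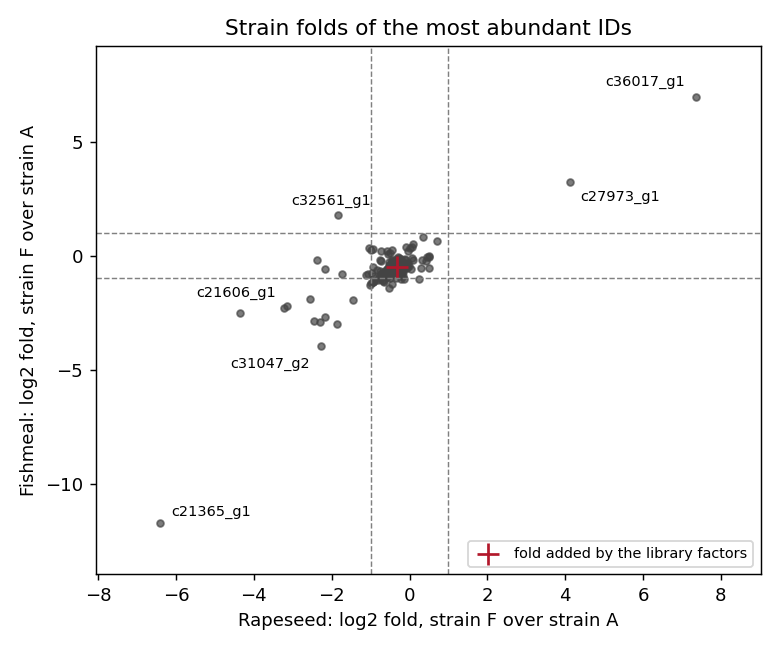
Log2 fold of strain F over strain A, on deposited value + 1, on rapeseed (horizontal) and on fishmeal (vertical), 1 point per abundant ID. Dashed lines mark 2-fold and the cross marks what the library factors add. c36017_g1 and c27973_g1 stand apart at the upper right, 12 IDs lie beyond 2-fold at the lower left, and c21365_g1 is placed by the 1 added to a listed 0 on fishmeal.

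The changes of the summed share were also split by ID. In rapeseed-fed A 110 IDs had a larger share than in fishmeal-fed A, by 9.86 points in sum, and 73 a smaller one, by -5.30 points in sum. The 5 largest gains made 4.44 of the 9.86 points. The 3 highest IDs together changed by -3.60 points there, so that the others together were higher by 8.17 points. In strain F the 3 highest changed by -0.03 points with rapeseed and the others by 4.75. Between the strains on fishmeal the 3 highest IDs changed by -5.42 of the -5.89 points in all, whereas on rapeseed they changed by -1.85 of -5.73. The IDs with the largest gain in fishmeal-fed F were c27973_g1 (0.63 points) and c30530_g2 (0.48 points), and c30530_g2 held 0.811% of fishmeal-fed F and 0.332% of fishmeal-fed A.

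A shared c number is read here as 1 assembly component. They may be parts or close copies of 1 gene, and reads may have been split between them. The 183 IDs came from 172 components, of which 10 held 2 or more of them (21 IDs). Within a component the largest and smallest log2 fold of the abundant IDs differed by a median of 0.23 over 40 comparisons (10 components and 4 pairs of libraries). The gap was under 0.5 in 31 of the 40 and 1 or more in 3. Beside the 183, the same components held 117 IDs of lower level, with a median mean of 3.91 FPKM, and 13 of them had a mean of 100 or more.

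The component with the most abundant IDs was c23053, with 3. c23053_g1 stood at 1662 FPKM in rapeseed-fed F, 746 in fishmeal-fed F, 2891 in rapeseed-fed A and 1558 in fishmeal-fed A. The values of c23053_g2 were 983, 521, 2148 and 933 FPKM, and those of c23053_g3 were 946, 592, 1814 and 828 FPKM, by library as before. All 3 were highest in rapeseed-fed A and lowest in fishmeal-fed F, on both scales. In c33850, c33850_g2 stood 2.38, 2.32, 2.79 and 2.68 times above c33850_g1 in that order of libraries, a range of ratios narrower than in the components that follow.

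Other components were less even. c31047_g1 stood 3.44, 3.47 and 2.97 times above c31047_g2 in rapeseed-fed F, rapeseed-fed A and fishmeal-fed A, and 6.27 times in fishmeal-fed F, where c31047_g2 had its lowest value. c32561_g2 stood 3.07 times above c32561_g1 in rapeseed-fed F, 2.13 times in fishmeal-fed F, 3.87 times in rapeseed-fed A and 10.9 times in fishmeal-fed A. In strain A c32561_g2 was also higher on rapeseed, at 12928 FPKM against 3135 on fishmeal (log2 fold 2.04). In strain F it stood at 2857 FPKM on rapeseed and 2085 on fishmeal, so both IDs of the component were highest in rapeseed-fed A. c32561_g1 was lowest in fishmeal-fed A, whereas c32561_g2 was lowest in fishmeal-fed F on the deposited scale. By share c32561_g2 was lowest in rapeseed-fed F, at 0.221% against 0.233% in fishmeal-fed F and 0.257% in fishmeal-fed A. Beside the IDs with the largest strain folds, c36017_g2 stood at 2.39 FPKM or less in every library. c21365_g2 had the same order of strains as c21365_g1 at a low level, since it was listed at 0 in both strain F libraries and stood at 9.21 FPKM in rapeseed-fed A and 5.80 FPKM in fishmeal-fed A. The components of c27973_g1 and c21606_g1 held no other ID.

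**Figure D5:**
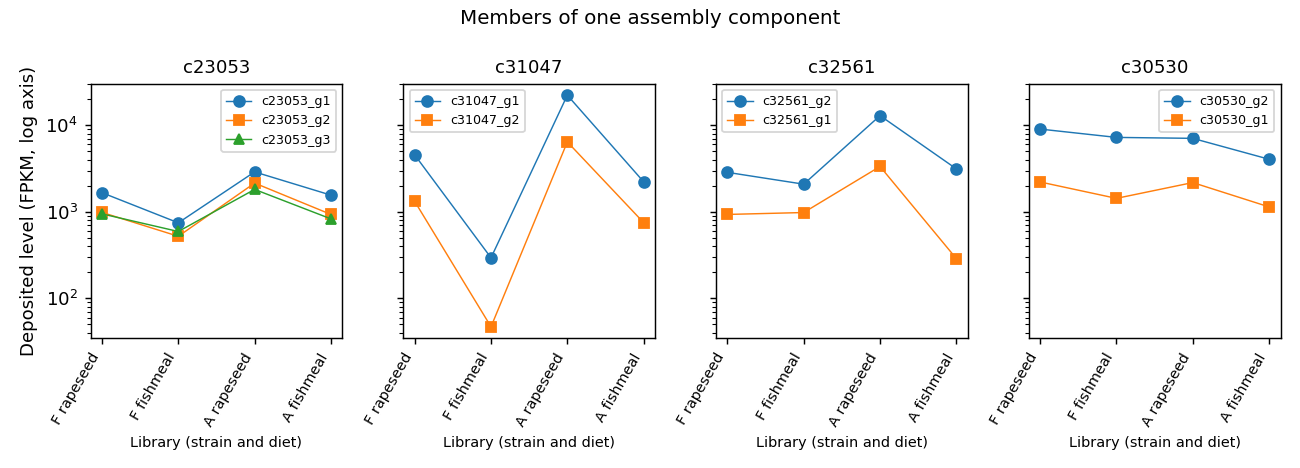
Deposited level (FPKM, log axis) of the abundant IDs of 4 components in the 4 libraries, 1 line per ID, with lines only joining values of the same ID. In c23053 all 3 lines peak in rapeseed-fed A, and those of c23053_g2 and c23053_g3 cross. In c30530 the ratio of the IDs runs from 3.24 to 5.07, and in c32561 the lines part in fishmeal-fed A. In c31047 they part in fishmeal-fed F, where c31047_g2 is near the range estimated for 1 read.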

How the data were processed

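Liver RNA of 4 libraries was measured by sequencing. Each library has 1 deposited file of 56011 IDs, all in FPKM-like values made by the authors. Bowtie 1.0.1 and RSEM 1.2.17 are named, without roles, per the submitters' processing notes, and no source used here names the reference. The unit of the deposited values was read from the values as FPKM times 1 factor per library: 100% of the distinct values under 3 lay within 0.0006 of a multiple of 1 step per library, and the product of the factors was 1.00. The procedure was tested on simulated data.

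The 183 members, lists and limits were chosen with earlier results of these data known. Folds are differences of log2(value + 1). Relative depth came from 3454 IDs whose values in the 3 deep libraries were 1, 2 or 3 times the smallest among them (within 0.06 on the log2 scale, lowest value 0.2 to 3 FPKM); 289 were above 0 in strain F on fishmeal. The absolute depth is unknown, so no intervals are given. IDs were named by rule: the 10 highest, at most 2 per direction and comparison by fold and by change of share, those at the limit, those listed at 0, the 2 components with most members, and the largest and smallest ranges. c30530 and c32561 were described as components after their values were seen. Python 3.11.15, numpy 2.4.6, pandas 2.3.3 and matplotlib 3.10.9 were used.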

Additional observations from a re-analysis of the deposited data

Results flagged for a closer look

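Of the abundant IDs named above, 5 had diet folds or strain folds that ran in opposite directions, each at least 1.1-fold on the deposited scale. None of these differences was tested. For strain, the log2 strain fold, rapeseed minus fishmeal, was -3.61 for c32561_g1 (-1.84 and 1.77), 1.03 for c24229_g1 (0.51 and -0.52) and 0.657 for c26954_g1 (0.42 and -0.24). On the share scale c32561_g1 kept opposite signs (-1.48 and 2.22), c24229_g1 stood at 0.87 and -0.07, and c26954_g1 stood above strain A with either diet (0.78 and 0.21). For diet, the log2 diet fold, strain F minus strain A, was 0.9 for c27973_g1 (0.63 and -0.27) and 0.406 for c36017_g1 (0.18 and -0.23). On the share scale c27973_g1 stood at 0.10 and -0.70, and c36017_g1 was lower on rapeseed in both strains (-0.35 and -0.63). Every one of these differences includes the shallow strain F fishmeal library.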

How the results depend on the processing

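Once values were divided by the library factors, 12 of the 183 IDs were 2-fold higher and 3 lower on rapeseed in strain A, and 5 higher and 4 lower in strain F. On fishmeal 6 were then higher and 11 lower in strain F than in strain A, and for diet in both strains 4 were higher and 1 lower. By share of the summed level the same counts were 12 and 3, 5 and 3, 5 and 11, and 4 and 1. These differences follow from the factors by construction. Folds were also centred on the median of 6171 IDs of mean level 10 or more that were above 0 in every library. Low IDs therefore had to be detected in the shallow fishmeal-fed F to enter this median. On the centred folds 21 were higher and 2 lower on rapeseed in strain A. There 9 were higher on rapeseed in strain F, 13 were lower in strain F on fishmeal and 1 was lower for diet in both. The strain counts on rapeseed and the count lower in strain F on both diets stayed within 1.5 times of the main ones under all 3 rescalings, and all counts equalled them at pseudocounts of 0.1 and 10. Choosing by the 3 libraries other than fishmeal-fed F took 199 IDs. Of these, 14 were higher on rapeseed in both strains, 1 was higher in strain F on rapeseed and 1 on both diets. c36017_g1 was not among the 199.

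Choosing without 1 of the other 3 libraries in turn, which was added after seeing the data, gave for diet 16 to 34 higher and 0 lower in strain A, 14 to 24 higher and 1 to 2 lower in strain F, and 4 to 13 higher and 0 lower in both. For strain it gave 1 to 3 higher and 8 to 23 lower on rapeseed, 2 to 5 higher and 19 to 28 lower on fishmeal, and 1 to 3 higher and 6 to 14 lower on both. The lowest counts of IDs higher on rapeseed, and of IDs lower in strain F, were those without rapeseed-fed A. Without rapeseed-fed F 1 ID was higher in strain F on rapeseed, and without fishmeal-fed A 5 were higher on fishmeal. Without rapeseed-fed A, and likewise without fishmeal-fed A, 2 were lower on rapeseed in strain F.

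A limit of 500 took 307 IDs. For diet it gave 49 higher and 3 lower in strain A, 54 and 3 in strain F, and 22 and 1 in both. It gave for strain 5 and 35 on rapeseed, 6 and 46 on fishmeal, and 4 and 21 on both. A limit of 2000 took 94 IDs. It gave 14 higher in strain A, 11 higher and 0 lower in strain F and 5 higher in both for diet, and 1 and 8, 1 and 11, and 1 and 6 for strain. More or fewer IDs were counted there by construction. The share held was 68.2%, 63%, 74.1% and 68.8% at a limit of 500 and 51.6%, 47.5%, 56% and 52.7% at 2000, in the order rapeseed-fed F, fishmeal-fed F, rapeseed-fed A and fishmeal-fed A. Leaving each library in turn out of the choice gave shares of 59.4 to 62.4%, 55.3 to 57.2%, 63.2 to 68.7% and 60.4 to 63.6% in that order. No fold of the 31 named IDs past 2-fold changed sign under a rescaling or pseudocount. Of the 124 folds of these IDs, however, 13 crossed the 2-fold limit with the factors divided out. By share 13 crossed it, and with centred folds 8 did. No paired analysis was possible because the labels give no replicate numbers shared between groups, and the strains were not taken as replicates of a diet.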
